A study of Mus musculus with 3 samples.

Results

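Smooth muscle cells and the pericytes that wrap capillaries were sought among the lung cells of 3 irradiated mice. A cell was kept when 3 or more of the 10 genes Myh11, Acta2, Tagln, Cnn1, Des, Actg2, Cox4i2, Higd1b, Notch3 and Kcnj8 were above 0 and when Ptprc, Pecam1, Epcam and Msln, which mark leukocytes, endothelium, epithelium and mesothelium, were all at 0. The rule kept 218 of 19622 cells, with 59 from the CONV mouse, 81 from CONV AsiDNA and 78 from FLASH. Pericytes were defined within them as cells with Cox4i2 or Higd1b above 0 and Myh11 at 0. The cells were thus selected on the measured values of these genes, whose levels are given below as a description only.

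Each library came from the lungs of 1 wild-type (WT) female C57BL/6J mouse, taken 5 months after 13 Gy to the thorax and dissociated with enzymes into single cells. The CONV mouse was irradiated at a conventional dose rate, and the FLASH mouse received the same nominal dose at an ultra-high dose rate. The study lists the given thorax dose as a range for each mode, and the ranges differ. The CONV AsiDNA mouse was irradiated as CONV and was also injected with AsiDNA, an oligonucleotide that mimics the ends of a DNA double-strand break, at 100 mg/kg on 2 consecutive days and at 200 mg/kg on the third day with the irradiation. All 3 mice were irradiated, no library of an unirradiated mouse was analysed here, and the libraries were compared to see how the added AsiDNA or the dose rate went with the late state of the tissue. With 1 mouse per condition, the condition, the mouse and the library cannot be told apart, and no difference between libraries was tested. The intervals given for shares cover the sampling of cells only.

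Smooth muscle cells contract when calcium activates myosin light chain kinase, which lets smooth muscle myosin (Myh11) pull on filaments of smooth muscle actin (Acta2, Actg2), while transgelin (Tagln), calponin (Cnn1), caldesmon and tropomyosins sit on those filaments and desmin (Des) ties them to the cell's frame. In the lung such cells form the wall of arteries, veins and airways. Pericytes lie on capillaries within the basement membrane and are recognised by genes such as Pdgfrb, Cspg4, Notch3, Cox4i2, Higd1b and Kcnj8, several of which vascular smooth muscle also uses. In mice, Actc1, the actin of heart muscle, is also made by smooth muscle.

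The data went against the label for pericytes. Myh11, itself a gene of the rule, was above 0 in 174 of the 218 cells, and 1 cell, in FLASH, met the definition of a pericyte. Higd1b was above 0 in 1 cell of each whole library and in none of the kept cells. Vtn, another pericyte gene, was above 0 in 1, 0 and 2 cells of the whole CONV, CONV AsiDNA and FLASH libraries, all of them outside the kept cells. Cox4i2 was above 0 in 19, 8 and 18 kept cells, in the same order, of which all but 1 in FLASH also had Myh11 above 0. Over the whole libraries Cox4i2 was above 0 in 31, 21 and 26 cells. Rgs5, a gene of pericytes and vascular muscle, was above 0 in 20, 16 and 36 cells, of which 6, 3 and 5 were kept. The cells with these genes outside the rule were not examined. No account of pericytes as cells of their own is given here, and the kept cells are called gated cells, Myh11-positive cells and Myh11-zero cells from here on.

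Most cells with Myh11 above 0 were in the gate, of which Myh11 is a gene. Over the whole CONV, CONV AsiDNA and FLASH libraries it was above 0 in 57, 72 and 52 cells, and 55, 69 and 50 of these were gated. A fibroblast gate, 3 or more of 9 fibroblast genes and none of the 4 excluding genes, took in 97, 160 and 208 cells, of which 34, 47 and 32 had Myh11 above 0 and were gated cells as well. In all, 155 of the 218 gated cells met it, 113 of the 174 with Myh11 and 42 of the 44 without. The gated fibroblasts named below are the 59, 101 and 150 cells left once the gated cells were taken out, and since that step removes cells with muscle genes, their low levels of genes of the rule are set by it. Among cells with Ptprc above 0 it was above 0 in 0 of 4323, 2 of 4711 and 0 of 4181 cells, at median totals of 3387, 3546 and 3501.

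The Myh11-zero cells were few and carried fibroblast genes. The CONV mouse had 4 of them, CONV AsiDNA had 12 and FLASH had 28, and 43 of the 44 had Cox4i2 and Higd1b at 0 as well. A list of 16 fibroblast genes summed to 6793, 15555 and 14994 adjusted CPM in them (CONV, CONV AsiDNA and FLASH in this order, as throughout), and to 1830, 1412 and 1694 in the Myh11-positive cells. At the threshold of the rule, 35 cells had exactly 3 of its genes and 91 had 2. Of those 35, Tagln was above 0 in 30, Acta2 in 25, Kcnj8 in 21 and Myh11 in 4, and of the 91, Tagln was above 0 in 68, Kcnj8 in 25, Acta2 in 24 and Myh11 in 0. The fibroblast gate was met by 90 of the 91 cells just outside and, as given above, by 155 of the 218 inside. The rule had also dropped 6 cells for Ptprc, Pecam1, Epcam or Msln.

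Markers of other cells were otherwise scarce. In the gated cells, a list of 14 endothelial genes summed to 75.9, 49.1 and 64.8 adjusted CPM, with Cdh5, Cldn5 and Tie1 listed at 0 in all libraries. A list of 14 epithelial genes summed to 4.21, 0 and 0, and all 9 genes of dividing cells were listed at 0. A list of 8 mesothelial genes summed to 105, 30.7 and 61.5, and a list of 10 glial genes to 249, 230 and 324. A list of 18 leukocyte genes summed to 5470.1 in CONV, nearly all of it Ighm in 1 cell, and to 0 and 3.24 in the others. A list of 12 heart muscle genes summed to 2482, 6143 and 3944, with 4, 5 and 4 of them above 0. Of these, Actc1 stood at 2293, 5883 and 3853, Tnnt2 and Ryr2 were also above 0 in all libraries, and Myh6 and Myl7 were listed at 0. The part of any of these in the results below was not tested.

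An adjusted count is the whole number recovered from a deposited value, and levels are sums of adjusted counts over cells, scaled to a total of 1000000 adjusted counts in those cells (adjusted CPM). The gated cells had median totals of 4246, 4045 and 3943 adjusted counts and 1981, 1748 and 1647 genes above 0, and their sums were 237290, 326041 and 308851. The median share of mitochondrial counts was 0.415%, 0.681% and 1.66%, against 0.628%, 0.180% and 1.35% over all cells of the libraries. These shares follow values listed at 0, since mt-Co2, mt-Co3 and mt-Nd3 were at 0 in every gated cell of CONV and of CONV AsiDNA, and mt-Co1 and mt-Atp6 in those of CONV, though mt-Co2 was above 0 in 36.8% and 28.1% of all cells of those libraries. A 0 in these files can be a failed estimate, so nothing is read from the mitochondrial shares. Between library pairs, 16, 9 and 17 cell barcodes were shared, none of them between gated cells.

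The gated share of the libraries had overlapping intervals. The share of gated cells with Myh11 above 0 was lowest in FLASH and moved with the setting of the gate. Since Myh11 is a gene of the rule, its share among gated cells is a description, and no difference between libraries is read from it. For CONV the gated share was 0.926% of cells (95% Clopper-Pearson interval 0.706 to 1.19), for CONV AsiDNA it was 1.16% (0.922 to 1.44) and for FLASH 1.24% (0.985 to 1.55), and the 3 intervals overlap. With 2 or more genes of the rule in place of 3, the shares were 1.11% (0.871 to 1.40), 1.50% (1.23 to 1.82) and 2.12% (1.78 to 2.51), and the FLASH interval then lies above that of CONV. Myh11 was above 0 in 93.2% of gated cells (83.5 to 98.1) for CONV, while for CONV AsiDNA the share was 85.2% (75.6 to 92.1) and for FLASH 64.1% (52.4 to 74.7). The rule itself decides which cells with Myh11 at 0 are kept, so the place of these intervals decides nothing between libraries. When the gated cells were thinned to 1000 adjusted counts, Myh11 was above 0 in 86.4%, 74.1% (63.1 to 83.2) and 59.0% (47.3 to 70.0) of them. There the FLASH interval overlaps that of CONV AsiDNA. When cells were thinned first and gated after, the shares were 94.4% (84.6 to 98.8), 87.1% (77.0 to 93.9) and 79.3% (66.6 to 88.8), and with 4 or more genes of the rule 98.1%, 95.8% and 84.7%, and in both settings the FLASH interval overlaps that of CONV. Of all cells, Myh11-positive cells were 0.863%, 0.988% and 0.798%, and Myh11-zero cells 0.0628%, 0.172% and 0.447%. Gated fibroblasts were 0.926%, 1.45% and 2.39% of all cells, in the same order as the Myh11-zero cells, and cells that met the fibroblast gate with the gated cells kept in it were 1.52%, 2.29% and 3.32%.

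**Figure D1:**
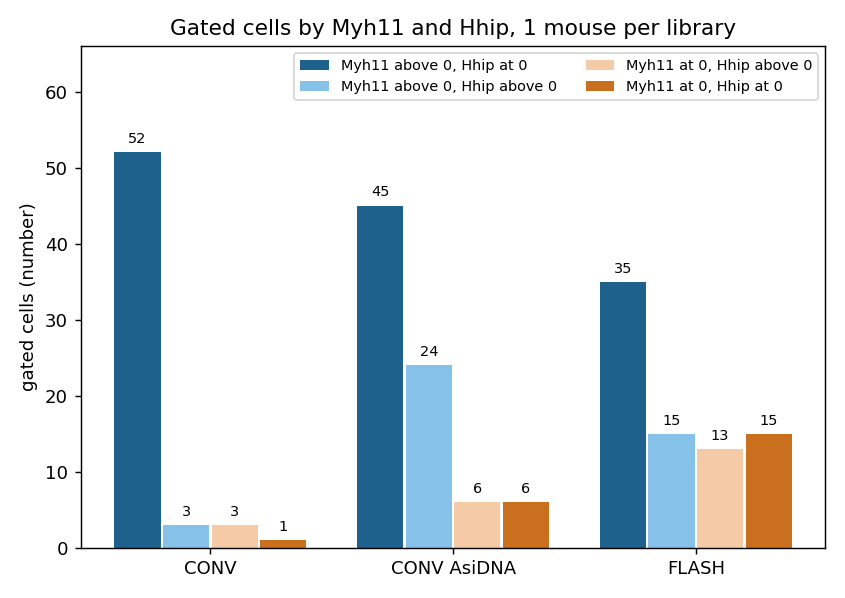
Number of gated cells in each library (1 mouse each), split by whether Myh11 and Hhip were above 0 or at 0. FLASH had 28 cells with Myh11 at 0 against 4 in CONV, and CONV had 3 Myh11-positive cells with Hhip against 24 in CONV AsiDNA and 15 in FLASH.

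Genes were compared in the Myh11-positive cells, 55, 69 and 50 of them, and over all gated cells beside them. A gene was ranked with a mean of at least 50 adjusted CPM and a summed adjusted count of at least 20, and log2 ratios were taken after adding 10 CPM to each level. In the Myh11-positive cells, 335 of 3173 ranked genes (10.6%) differed over 2-fold between CONV and CONV AsiDNA, 167 higher in CONV (5.26%) and 168 lower (5.29%). Between CONV and FLASH, 354 genes (11.2%) did so, 202 higher in CONV (6.37%) and 152 lower (4.79%), and between CONV AsiDNA and FLASH, 138 (4.35%), 85 higher in CONV AsiDNA (2.68%) and 53 lower (1.67%). CONV AsiDNA and FLASH were the pair with the fewest genes apart. Over all gated cells the numbers were 344 of 3294 (10.4%), 417 (12.7%) and 135 (4.10%). Both comparisons with CONV use the same 1 CONV library.

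Among the contractile genes, the main actin and its partners were present at high levels in all 3 libraries, and Cnn1, Actg2, Des and Actc1 were lower in CONV. Acta2 stood at 16794, 23699 and 24358 adjusted CPM in Myh11-positive cells, with medians of 66, 90 and 102 adjusted counts per cell. Tagln stood at 13605, 17355 and 21109, and Myh11 itself at 5315, 4026 and 5965. For none of these 3 did the libraries lie 2-fold apart. Cnn1, the calponin that restrains actin-activated myosin, stood at 976, 3152 and 2855, above 0 in 46, 59 and 41 cells with medians of 3, 8 and 8. On the log2 scale CONV stood at -1.68 relative to CONV AsiDNA and at -1.54 relative to FLASH, with 0.14 between CONV AsiDNA and FLASH.

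Actg2, the actin of visceral smooth muscle, stood at 871, 2683 and 2178, with log2 ratios of -1.61 and -1.31 for CONV over the other libraries. Des, the intermediate filament of muscle, stood at 1569, 4022 and 2999.9, so that CONV was 1.35 lower than CONV AsiDNA on the log2 scale (ratio -1.35) and, with -0.93, within 2-fold of FLASH. Actc1 stood at 2482, 6981 and 5930.0, with log2 ratios of -1.49 and -1.25. In each of these 4 genes CONV was the lowest library and CONV AsiDNA the highest. As background, Cnn1, Actg2 and Des were each above 0 in 0, 2 and 0 of the cells with Ptprc above 0.

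Other parts of the contractile apparatus did not share this order. Myl9, the regulatory light chain of smooth muscle myosin, stood at 6095, 4273 and 4465, and Lmod1, which seeds actin filaments, at 1601, 1227 and 1231, so that CONV was the highest of the 3 within 2-fold. Mylk, the kinase that starts contraction, stood at 1766, 2020.1 and 2407, and Tpm1, a tropomyosin, at 2318, 3145 and 3254. Of the 22 genes of the contractile list, 21 were ranked. CONV was below CONV AsiDNA in 13 and above in 8, with 3 past 2-fold, all below, and a median log2 ratio of -0.20. CONV was below FLASH in 14 and above in 7, with 2 past 2-fold, both below, and a median of -0.21. The genes past 2-fold were Cnn1, Actg2 and Des, all of them genes of the rule, and nothing is read from their number beside the 5.29% and 4.79% of all genes that were below. Without the 6 genes of the rule, a setting added after seeing the data, 0 of 15 were past 2-fold in either comparison, 7 were above and 8 below in each, and the medians were -0.01 and -0.01 against 0.03 and 0.05 over all genes. Over all gated cells, the Myh11-zero cells included, the CONV and FLASH median was 0.21, so its sign turned, and without the genes of the rule it was 0.42. Cnn1 then stood at 902, 2656 and 1855 and Acta2 at 15593, 20148 and 16286, still lowest in CONV.

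**Figure D2:**
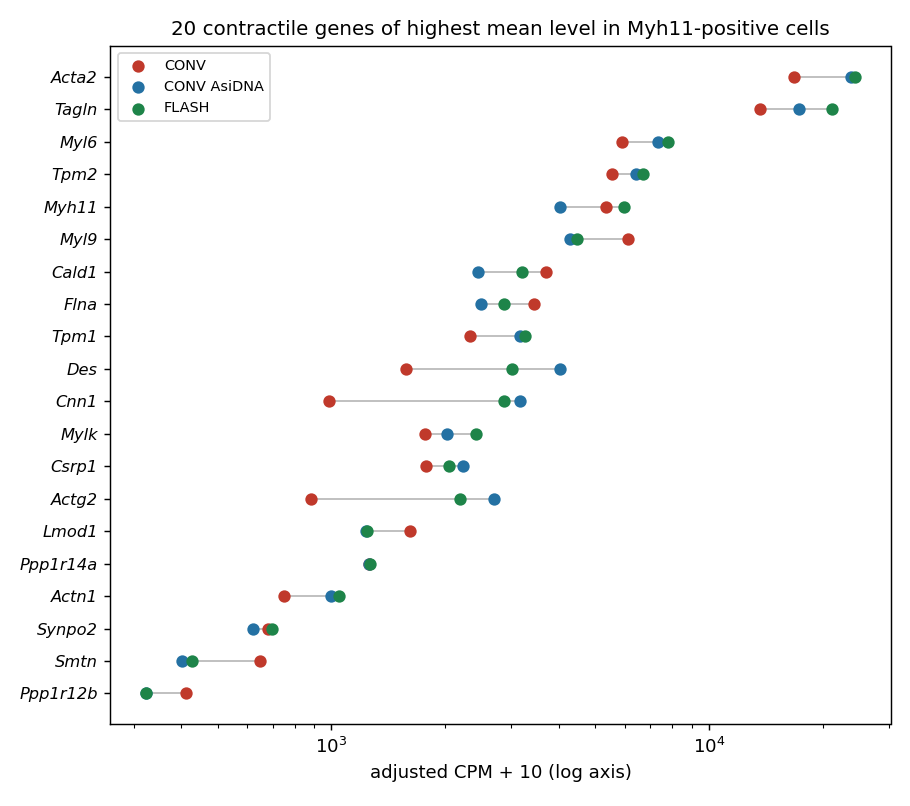
Levels of the 20 contractile genes of highest mean in the Myh11-positive cells of each library (adjusted CPM plus 10 on a log axis, 1 mouse each, points are libraries and lines join their range). Cnn1, Actg2 and Des lie lowest in CONV, while Myl9 and Lmod1 lie highest there.

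The promoters of genes named here are shown because 2 of them, Actc1 and Myl9, hold a CArG box, the sequence bound by serum response factor with its muscle partner myocardin. The 250 bases before the start of each gene were read from RefSeq (build GRCm38.p6), 5′ to 3′ on the gene's strand, with the match in capitals.

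Actc1 (chr2:114052876-114053125, minus strand): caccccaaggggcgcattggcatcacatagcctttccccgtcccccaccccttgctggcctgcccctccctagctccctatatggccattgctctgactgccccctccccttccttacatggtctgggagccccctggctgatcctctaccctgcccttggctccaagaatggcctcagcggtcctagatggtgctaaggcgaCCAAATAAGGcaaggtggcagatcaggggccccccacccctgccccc

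Myl9 (chr2:156775214-156775463, plus strand): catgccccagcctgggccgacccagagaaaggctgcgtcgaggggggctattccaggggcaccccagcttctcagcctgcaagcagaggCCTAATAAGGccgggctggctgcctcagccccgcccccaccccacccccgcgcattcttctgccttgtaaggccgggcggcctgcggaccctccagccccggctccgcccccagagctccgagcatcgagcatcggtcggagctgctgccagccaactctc

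Cnn1 (chr9:22099003-22099252, plus strand): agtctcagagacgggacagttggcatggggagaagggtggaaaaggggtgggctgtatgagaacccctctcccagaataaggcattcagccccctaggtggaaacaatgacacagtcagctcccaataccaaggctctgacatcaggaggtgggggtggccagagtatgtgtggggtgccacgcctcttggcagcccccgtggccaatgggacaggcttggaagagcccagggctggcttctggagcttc

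Des (chr1:75360042-75360291, plus strand): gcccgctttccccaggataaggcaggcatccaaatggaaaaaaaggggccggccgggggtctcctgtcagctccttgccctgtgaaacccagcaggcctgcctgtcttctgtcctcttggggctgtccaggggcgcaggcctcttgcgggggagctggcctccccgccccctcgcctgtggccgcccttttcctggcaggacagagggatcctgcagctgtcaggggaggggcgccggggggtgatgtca

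Acta2 (chr19:34255374-34255623, minus strand): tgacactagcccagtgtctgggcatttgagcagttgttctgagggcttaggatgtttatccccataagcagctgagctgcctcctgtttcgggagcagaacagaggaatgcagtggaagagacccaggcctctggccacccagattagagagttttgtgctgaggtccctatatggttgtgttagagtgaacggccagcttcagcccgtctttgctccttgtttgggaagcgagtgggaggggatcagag

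The match of Actc1 started 47 bases before its start and that of Myl9 161 bases before. The window of Cnn1, of Des and of Acta2 held no exact match, which says only that these letters are absent there. The CArG box was searched in its exact form, which reads the same on both strands. Of 23 windows of the contractile genes and Actc1 (19 of 23 genes had an entry), 3 held a match (13.0%), the third being Myl6, and of 32851 promoter windows of the same length, 482 did (1.47%). Among the genes with a match, Actc1 was lowest in CONV, Myl9 was highest there and Myl6 stood at 5872, 7309 and 7759.

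Most regulators of the smooth muscle state lay within 2-fold between libraries. Myocd, the coactivator that switches on contractile genes, stood at 146, 233 and 249 in Myh11-positive cells, and Klf4, which represses them, at 169, 226 and 284. Gata6, a factor of quiescent vascular muscle, stood at 237, 98.3 and 94.7, in 28 of 55, 17 of 69 and 12 of 50 cells. It was the only one of the 7 ranked regulators past 2-fold, at log2 ratios of 1.19 and 1.24. Over all genes, 10.6% and 11.2% were past 2-fold in these comparisons, so nothing is read from this count.

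The Myh11-positive cells differed in Hhip, and the share with Hhip was lowest in CONV. Hhip, a secreted inhibitor of Hedgehog ligands, was above 0 in 3 of 55 CONV cells (5.45%, interval 1.14 to 15.1), in 24 of 69 CONV AsiDNA cells (34.8%, 23.7 to 47.2) and in 15 of 50 FLASH cells (30%, 17.9 to 44.6). The CONV interval lies below both others. Thinned to 1000 adjusted counts, the shares were 5.45% (1.14 to 15.1), 27.5% (17.5 to 39.6) and 20.0% (10.0 to 33.7), so that the CONV interval lies below that of CONV AsiDNA and overlaps that of FLASH. Among cells with Ptprc above 0 Hhip was found in 0 of 4323, 3 of 4711 and 0 of 4181. Among Myh11-zero cells, 3 of 4, 6 of 12 and 13 of 28 had Hhip. This split was chosen after the values were seen. The intervals cover the sampling of cells from 1 mouse per library, so their place decides nothing between libraries. The CONV share of Myh11-positive cells with Hhip rests on 3 cells.

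Cells with Hhip had lower levels of Acta2, Lmod1, Notch3 and Itga8 and a higher level of Aspn. In CONV AsiDNA and FLASH, where they number 24 and 15, Acta2 stood at 14000.3 and 10307 in them against 28553 and 30112 in Myh11-positive cells without Hhip. Aspn, a small matrix proteoglycan, stood at 2259 and 1938 against 317 and 323. Notch3, the Notch receptor of arterial muscle and pericytes, stood at 0 and 17.1 against 355 and 330.1, Itga8, an integrin of smooth muscle, at 196 and 120.1 against 825 and 1215, and Lmod1 at 567 and 480.2 against 1557 and 1538. Cnn1 stood at 3830.2 and 2744 against 2813 and 2901, while its median was 3 and 1 per cell against 9 and 9, and it was above 0 in 62.5% and 60.0% of cells with Hhip against 97.8% and 91.4% of those without. The 3 CONV cells with Hhip are too few to set beside these.

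**Figure D3:**
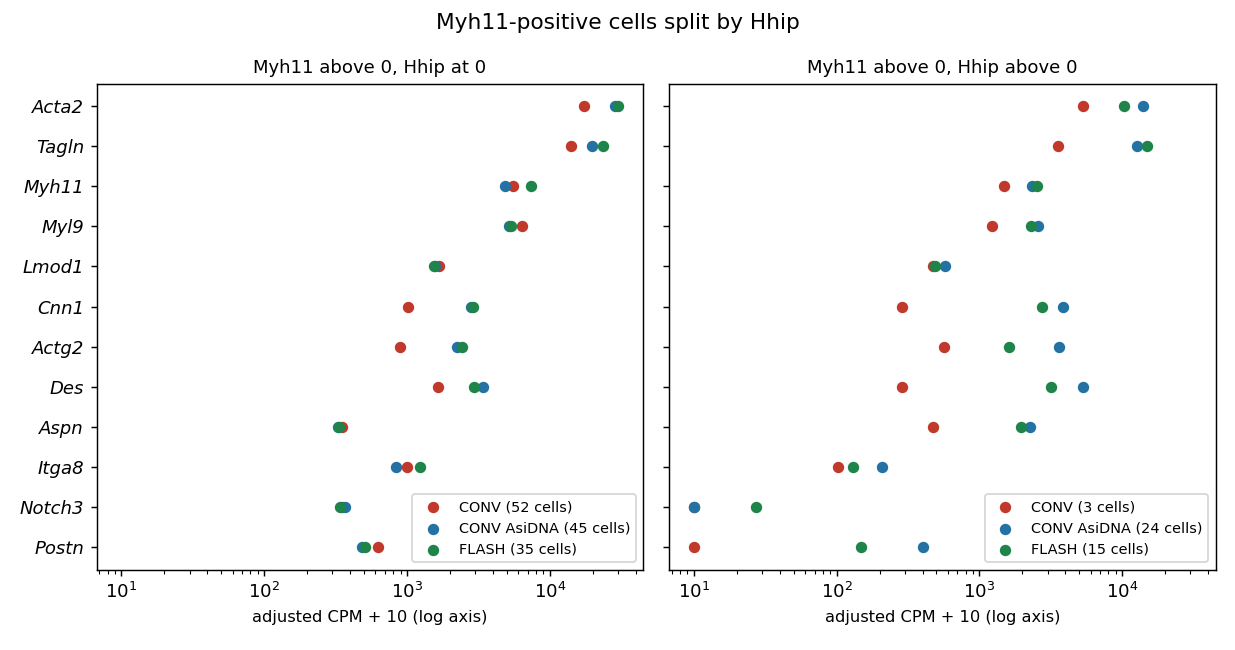
Levels of named genes in Myh11-positive cells with Hhip above 0 and at 0, by library (adjusted CPM plus 10 on a log axis, 1 mouse each, CONV with 3 cells above 0). Aspn is higher and Acta2, Notch3, Itga8 and Lmod1 are lower in cells with Hhip in CONV AsiDNA and FLASH.

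CONV was the lowest library for Cnn1, Actg2, Actc1 and Des in Myh11-positive cells without Hhip (52, 45 and 35 cells). There, Cnn1 stood at 1012, 2813 and 2901, Actg2 at 888, 2212 and 2416, Actc1 at 2610.3, 8050.3 and 6209 and Des at 1636, 3386 and 2943. Cnn1, Actg2 and Des are genes of the rule, and these cells are a part of those described above. The repeated order is thus a description and no separate support. Kcnj8, a subunit of the potassium channel that opens when ATP falls, turned its order, from 104.9, 269 and 209 in all Myh11-positive cells to 91.2, 49.1 and 21.1 in those without Hhip. In these cells, 359 of 3038 ranked genes (11.8%) were past 2-fold between CONV and CONV AsiDNA, 443 (14.6%) between CONV and FLASH and 220 (7.24%) between CONV AsiDNA and FLASH.

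The genes farthest below both other libraries in CONV were Ctsb, Thbs1, Bdnf, Hspa1b, Ankrd1, Hsph1, Tnfrsf12a, Dpt, Hspa1a and Chrm2, in this order. Ctsb, a lysosomal protease, stood at 18.2, 269 and 244 in Myh11-positive cells, in 2, 37 and 23 cells. Values at 0 that can be failed estimates were not confined to mitochondrial genes. Ftl1 was at 0 in every gated CONV cell, though above 0 in 29.3% of all CONV cells. Whether this bears on the low CONV level of Ctsb was not tested. Thbs1, a matrix protein that activates latent TGF-β, stood at 424, 3709 and 3423 in Myh11-positive cells, above 0 in 25, 60 and 43 cells, with medians of 0, 8 and 8 per cell. Its log2 ratios were -3.10 and -2.98, and without Hhip-positive cells it stood at 413, 4260.0 and 3751. Gated fibroblasts followed the same order, at 294, 2195 and 2063. Bdnf, a neurotrophin, stood at 18.2, 207 and 224 in 4, 26 and 20 cells, and was at or below 3.82 in gated fibroblasts of all libraries. Tnfrsf12a, the receptor of the cytokine TWEAK, stood at 132, 866 and 752.

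Hspa1a and Hspa1b, the inducible HSP70 chaperones, stood at 224, 1314 and 1106 and at 105, 1441 and 852. The cells above 0 for Hspa1a were 23, 52 and 37, and for Hspa1b 15, 48 and 31. In gated fibroblasts of the same libraries they stood at 222, 351 and 339 and at 42.1, 67.4 and 68.0, so that the log2 ratio of Hspa1a for CONV over CONV AsiDNA was -2.50 in Myh11-positive cells and -0.64 in fibroblasts. Hsph1, their nucleotide exchange factor, stood at 36.5, 273 and 259, and Hsp90aa1, an HSP90 chaperone, at 689, 1579.7 and 1316. Heat shock genes also respond to the enzymes and warming of dissociation. In the list of 21 ranked dissociation and immediate-early genes, CONV was below CONV AsiDNA in 12, with 4 past 2-fold below (these 4 chaperone genes) and 1 above, and below FLASH in 16, with 3 below and 1 above, where 5.29% and 4.79% of all genes were below. The medians were -0.11 and -0.46. Over all gated cells, CONV was below CONV AsiDNA in 17 of 21, 6 past 2-fold, where 5.83% of all genes were below. CONV was below FLASH in 19 of 21, 9 past 2-fold, where 6.89% of all genes were below. The medians there were -0.55 and -0.83 against 0.01 and 0.02 over all genes. Fos, an immediate-early factor, stood at 2359, 2569.7 and 3239. The part of dissociation in these values was not tested.

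The other genes of that group were Dpt, a matrix protein, at 45.6, 280.3 and 354, Chrm2, a muscarinic acetylcholine receptor, at 9.12, 109 and 79.7, and Ankrd1, a target of YAP, at 36.5, 284 and 757. In Ankrd1, 1 cell held 60.5% of the FLASH sum, and in Chrm2, 1 cell of the 3 held 87.5%. Dpt stood at 19.2, 5.46 and 28.1 in cells without Hhip, so its order did not hold there. In all, 102 genes in Myh11-positive cells lay past 2-fold below both other libraries in CONV and 80 above.

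**Figure D4:**
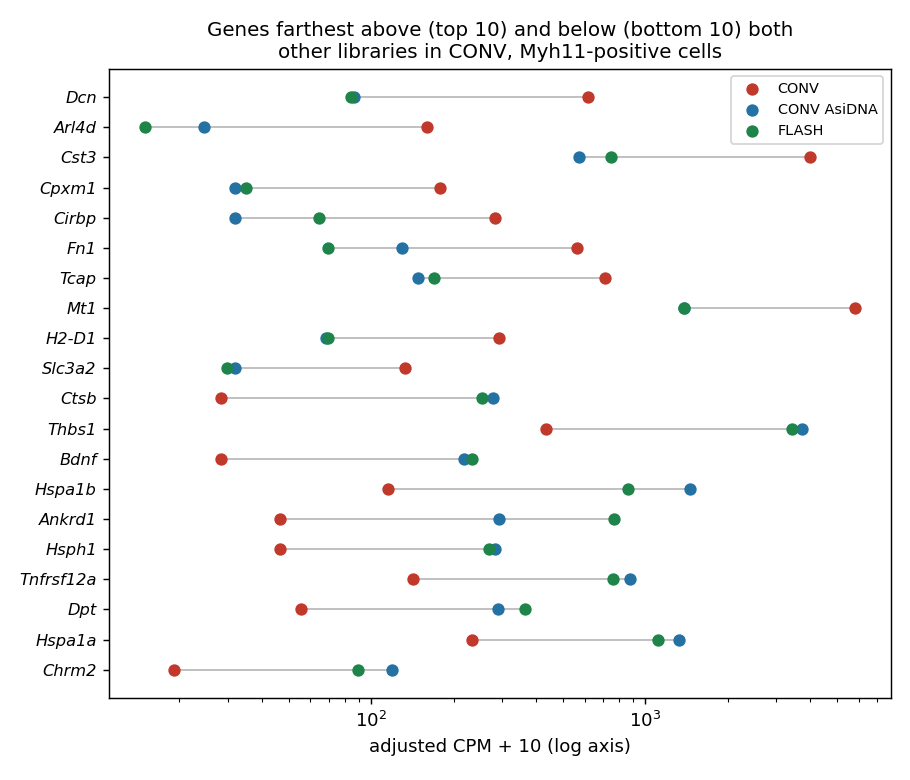
Levels of the genes farthest above or below both other libraries in CONV, in Myh11-positive cells (adjusted CPM plus 10 on a log axis, 1 mouse each, points are libraries). Thbs1 and the chaperones Hspa1a and Hspa1b lie lowest in CONV, and Cst3, Mt1, Tcap and Cirbp highest.

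Genes farthest above both others in CONV included a cold-inducible gene, a metallothionein and a sarcomere gene. Cirbp, an RNA-binding protein induced by mild cold, stood at 274, 21.8 and 54.8, in 35, 6 and 9 cells. It was also higher in CONV fibroblasts, at 119, 20.9 and 11.3, and in all cells outside the gate, at 253, 103 and 117. Mt1, which binds zinc and copper, stood at 5803, 1369 and 1375 in Myh11-positive cells, while fibroblasts had it at 2953, 4544 and 5173, so that the order turned between the cell types. Cst3, an inhibitor of cysteine proteases, stood at 3974, 561 and 738, and in fibroblasts at 5974, 4372 and 4161.

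Tcap, which caps titin in striated muscle, stood at 703, 138 and 159 in 37, 21 and 12 cells and at 0, 0 and 1.62 in fibroblasts. Arl4d, a small GTPase, stood at 151, 14.6 and 4.98 in 20, 3 and 1 cells, H2-D1, an MHC class I chain, at 283, 58.2 and 59.8 in 11, 10 and 6 cells, with 43.5% of the CONV sum in 1 cell, and Slc3a2, an amino acid transporter chain, at 123, 21.8 and 19.9. Dcn, Fn1 and Cpxm1, genes of the matrix and its cells, were at 607, 552 and 169 in CONV, but in 6, 10 and 4 cells, and 1 cell held 41.4% of the Dcn sum and 57.0% of the Fn1 sum. Those 3, like H2-D1, describe a few cells.

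**Figure D5:**
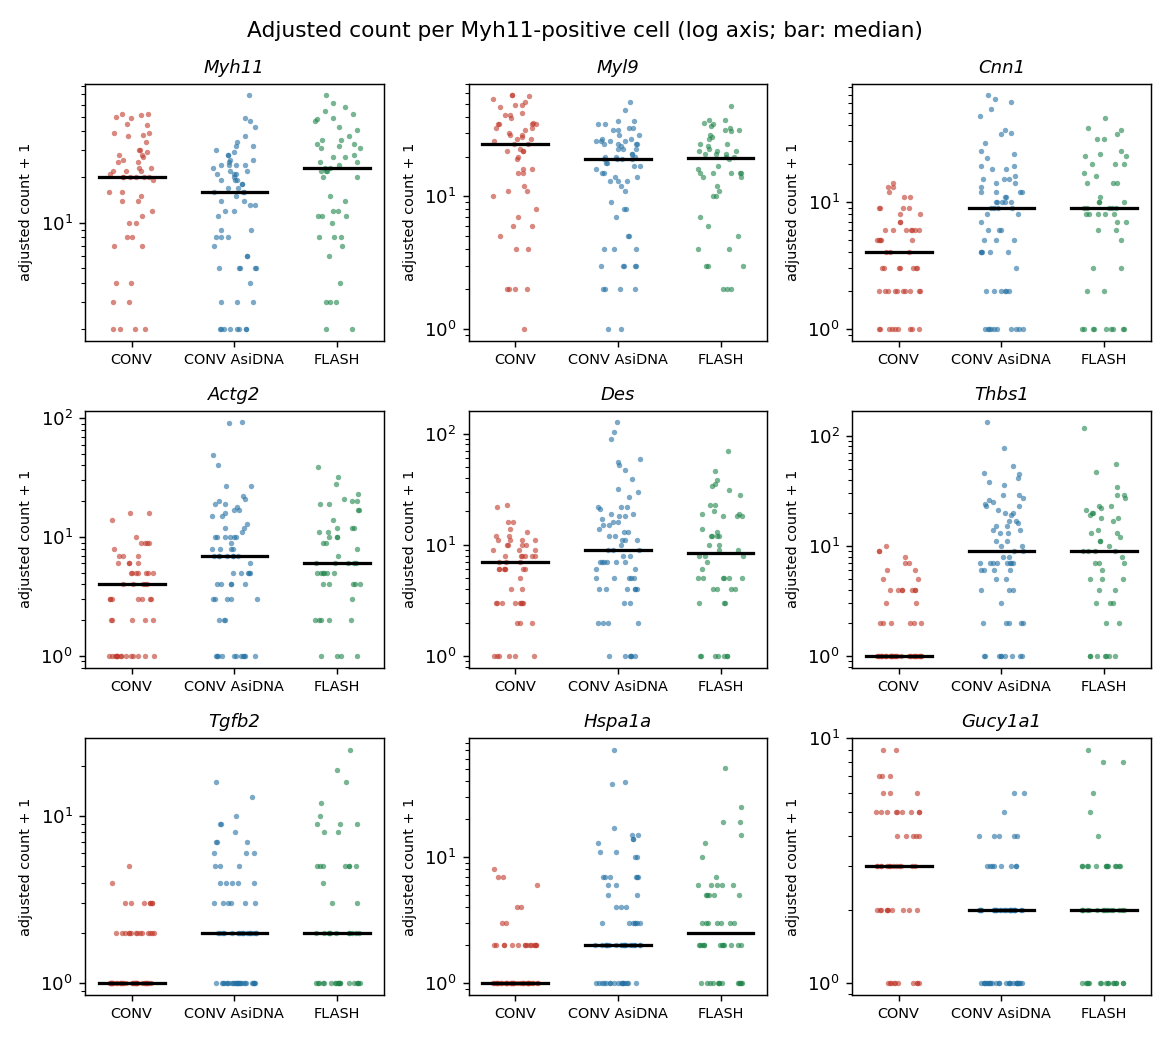
Adjusted counts plus 1 (log axis) of named genes in each Myh11-positive cell, with points for cells and bars for medians, 1 mouse per library. For Thbs1 the CONV median is 0 against 8 in both other libraries, and for Cnn1 it is 3 against 8.

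Some TGF-β genes were also lowest in CONV. Tgfb2, a ligand of the pathway, stood at 159.7, 539 and 802 in 23, 43 and 31 Myh11-positive cells, with log2 ratios of -1.69 and -2.26. In gated fibroblasts the order was the opposite, at 142, 79.0 and 42.1. Smad7, the pathway's induced inhibitor, stood at 41.1, 109 and 164. Ltbp4, which stores latent TGF-β in the matrix, stood at 648, 677 and 598. Of 14 ranked genes of the list, 4 were past 2-fold below in CONV and 0 above in each comparison, Thbs1 among them, where 5.29% and 4.79% of all genes were below. The median log2 ratios were -0.55 against CONV AsiDNA and -0.45 against FLASH, and 0.03 and 0.05 over all genes. Between CONV AsiDNA and FLASH, 0 were past 2-fold and the median was -0.05.

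Genes of pericytes and mural cells were mostly higher in CONV. Of 15 ranked, 14 were above CONV AsiDNA in CONV, 4 of them past 2-fold, with a median of 0.45, while Kcnj8 was past 2-fold below, and 13 above FLASH, 2 past 2-fold, with a median of 0.51. Over all 3173 genes, 1652 were above CONV AsiDNA in CONV and 1666 above FLASH, with 5.26% and 6.37% past 2-fold and medians of 0.03 and 0.05. The list holds genes of the rule (Notch3, Cox4i2 and Kcnj8 among those ranked). Without them 12 of 12 were above CONV AsiDNA, 3 past 2-fold, and 11 of 12 above FLASH, 2 past 2-fold, with medians of 0.48 and 0.64. Gucy1a1, the α chain of the nitric oxide receptor guanylate cyclase, stood at 620.5, 262 and 374, and Gucy1b1, its β chain, at 374, 229 and 364. Pdgfrb, the receptor that brings mural cells to vessels, stood at 224, 164 and 154, Cspg4 (NG2) at 292, 240.2 and 304, Mcam at 443, 397 and 229 and Notch3 at 324, 237 and 239. In Myh11-positive cells without Hhip, CONV was no longer the highest for Notch3 (341, 355 and 330.1) and Mcam (465, 486 and 302), while Gucy1a1 kept its order at 648, 339 and 464. Heyl, a target of Notch3, stood at 237, 116 and 139.5, and of 4 ranked Notch genes 3 were above in CONV in each comparison. Without Notch3, a gene of the rule, 2 of 3 were above in each. Of these 3, 1 was past 2-fold each way against CONV AsiDNA and 0 against FLASH, so no direction is read from them. Postn, a matricellular protein, stood at 589, 448 and 394.

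Vascular and airway lists gave no common direction for muscle as a whole. Sncg, a synuclein used as a mark of vascular muscle, stood at 748, 335 and 264, and Mustn1, another gene of that list, at 1948, 3421 and 3095. Of 6 ranked genes of the vascular list, Sncg was past 2-fold above in CONV in both comparisons and Rgs5 above CONV AsiDNA only, in 5 and 3 cells. Cnn1, a gene of the rule, was past 2-fold below in both. Over all genes, 10.6% and 11.2% were past 2-fold either way. In the airway list, 4 of 7 ranked genes were past 2-fold below in CONV in each comparison, and these were Hhip, Actg2, Chrm2 and Ptch1. Without Actg2, a gene of the rule, 3 of 6 were, where 5.29% and 4.79% of all genes were, with medians of -1.01 and -0.71. Of these 3, Chrm2 rests in FLASH on 3 cells, with 87.5% of the sum in 1 of them, and Hhip in CONV on 3 cells, with 67.9% in 1. Hhip itself stood at 383, 1842 and 1654. Ptch1, the Hedgehog receptor and target, stood at 41.1, 135 and 99.7.

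Receptors and channels that set vessel tone had few genes ranked. Ednra, the endothelin receptor of muscle, stood at 278, 171 and 224, Pde5a, which breaks down cGMP, at 251, 309 and 379, Kcnk3, a potassium leak channel, at 406, 244 and 204, Cacna1c, the L-type calcium channel, at 192, 116 and 189 and Atp2a2, the calcium pump of the sarcoplasmic reticulum, at 616, 546 and 553. In these lists, 1 of 8 receptor and cGMP genes (Gucy1a1) and 1 of 10 channels (Kcnj8) were past 2-fold between CONV and CONV AsiDNA, and 0 of either between CONV and FLASH, where 10.6% and 11.2% of all genes were, so that the first count is near that of all genes.

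Matrix genes went both ways in Myh11-positive cells and were mostly lower in CONV over all gated cells. Mgp, an inhibitor of calcification, stood at 15261, 10537 and 12981, elastin (Eln) at 1496, 1278 and 1291, Col1a1 at 401, 462 and 493 and Col3a1 at 561, 1147 and 997. Of 29 ranked interstitial matrix genes, 14 were above and 15 below CONV AsiDNA in CONV, and 12 above and 17 below FLASH, with medians of -0.01 and -0.18. Past 2-fold were 3 above and 5 below against CONV AsiDNA, 8 of 29 where 10.6% of all genes were, and 3 above and 2 below against FLASH (11.2%). Dcn, a small proteoglycan, stood at 607, 76.4 and 74.7, and Fn1, fibronectin, at 552, 120.1 and 59.8, while Tnc, tenascin C, stood at 36.5, 120.1 and 124.6. These 3 genes were named after their values were seen. Dcn was above 0 in 6, 8 and 2 cells, and 1 cell held 57.0% of the CONV sum of Fn1. Over all gated cells the medians were -0.28 and -0.72, and Col3a1 stood at 847, 1442 and 1794. The summed fibroblast list in the gated cells rose in the same order, at 2208, 3638 and 6353. In the basement membrane list, 1 of 13 genes was past 2-fold in each comparison with CONV. Over all genes 10.6% and 11.2% were, so nothing is read from this count. That gene was Lama5, a laminin chain, at 123, 51.0 and 19.9. Sparc stood at 1027, 1183 and 1171 and Col18a1 at 794, 495 and 573.

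Genes induced by p53, the factor that DNA damage activates, went both ways, with those past 2-fold higher in CONV. Cdkn1a, the cell-cycle inhibitor p21, stood at 557, 375 and 439, and Btg2 at 1109, 772 and 807. Trp53inp1 stood at 182, 32.8 and 54.8 in 18, 8 and 8 cells, with log2 ratios of 2.17 and 1.57, and Phlda3 at 151, 106 and 44.8. Bax, which opens the outer mitochondrial membrane, went the other way at 77.6, 94.6 and 89.7, as did Fas, a death receptor, at 45.6, 94.6 and 49.8. Of 9 ranked genes, 5 were above and 4 below CONV AsiDNA in CONV, and 6 above and 3 below FLASH. Of these, 2 were past 2-fold above in CONV in each comparison and 0 below, where 5.26% and 6.37% of all genes were above. The medians were 0.47 and 0.41, and 0.03 and 0.05 over all genes.

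Inflammatory, angiogenic and clock genes differed in both directions. Of 10 ranked inflammatory genes, 8 were above CONV AsiDNA in CONV, 1 past 2-fold (5.26% of all genes), and 7 above FLASH, with 1 past 2-fold each way, and the medians were 0.55 and 0.38. Over all gated cells the medians were -0.28 and -0.36. C3, the central complement protein, stood at 383, 32.8 and 105, in 8, 4 and 4 cells. In each library 1 cell held much of its sum, at 50.0%, 55.6% and 71.4%. Of 12 ranked angiogenic factors, 1 was past 2-fold above and 2 below CONV AsiDNA in CONV, and 2 each way against FLASH, so that 3 and 4 of 12 were past 2-fold where 10.6% and 11.2% of all genes were. Angpt1, the ligand that mural cells send to endothelial Tie2, stood at 219, 65.5 and 79.7, in 22, 15 and 13 cells, and Igfbp3, a carrier of insulin-like growth factors, at 50.2, 506 and 239, in 3, 9 and 6 cells. Of 6 clock genes, 2 were past 2-fold in both comparisons with CONV, 1 in each direction (10.6% and 11.2% of all genes), and 0 between CONV AsiDNA and FLASH. Per1 stood at 137, 51.0 and 24.9, Nfil3 at 36.5, 116 and 129.6 and Nr1d1 at 109, 72.8 and 125. The hour at which each lung was taken was not given in the sources used here.

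CONV AsiDNA stood apart from both others in 16 genes above and 27 below. Gja1, the gap junction protein connexin 43, stood at 73.0, 277 and 44.8, in 7, 25 and 7 cells, and Hspb8, a small heat shock protein, at 50.2, 164 and 34.9, in 8, 25 and 7. In fibroblasts Hspb8 was level, at 80.3, 83.6 and 82.6. Prnp, the prion protein, stood at 50.2, 164 and 54.8, and Bag2, a cochaperone, at 13.7, 102 and 34.9. Among genes lower in CONV AsiDNA, mt-Nd2 stood at 2039, 211 and 1664 and was above 0 in 2 of the 69 CONV AsiDNA cells, 1 of which held 93.1% of the sum, so that, as for the other mitochondrial genes at 0 there, a difference cannot be read from it. Over all cells outside the gate it stood at 1372, 993 and 1485. Csf1, the growth factor of macrophages, stood at 82.1, 21.8 and 79.7, and Aars, an aminoacyl-tRNA synthetase, at 82.1, 10.9 and 69.8.

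FLASH stood apart in 5 genes above and 39 below. Gcnt2, a glycosyltransferase, stood at 54.7, 65.5 and 145, in 11, 14 and 18 cells, and Tmsb10, which binds actin monomers, at 54.7, 43.7 and 139.5, in 5, 7 and 6. Eif4h, a translation factor, stood at 105, 83.7 and 9.97, Tia1, an RNA-binding protein of stress granules, at 68.4, 72.8 and 9.97, and Tmbim6, a protein of the endoplasmic reticulum, at 91.2, 98.3 and 19.9. Eif4h and Tia1 were each above 0 in 2 of 50 FLASH cells. Among all gated cells, 25 genes that passed the filter were listed at 0 in every cell of at least 1 library and were not ranked, mitochondrial genes in CONV and CONV AsiDNA among them.

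Within the gate, Myh11-positive and Myh11-zero cells were set side by side over the 3 mice, leaving out 23 genes of the gates. This is a description, since the classes were split on Myh11, a contractile gene of the rule, after seeing the data, and a cell without Myh11 had to pass on other genes. With limma, counts are given for the size of the split only. Of 3409 genes, 93 were higher in Myh11-positive cells (2.73%) and 80 lower (2.35%) at an adjusted p below 0.05, and all 173 (5.07%) differed the same way in all mice. Ccn3, a matricellular protein of arterial muscle, stood at 1036, 502 and 772 against 0, 19.5 and 18.5 (log2 5.20). Actc1, Cpe, Postn, Mcam and Cspg4 were listed at 0 in all Myh11-zero cells. Of 15 contractile genes, 11 were among the higher, and of 10 pericyte genes 5, which the split on Myh11 largely fixes.

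Genes lower in Myh11-positive cells included those of complement and of matrix turnover. Serping1, the C1 inhibitor, stood at 388, 266 and 209 against 2651, 3411 and 2736 (log2 -3.34), and Mmp2, a gelatinase, at 27.4, 58.2 and 39.9 against 331, 721 and 462. Cxcl14, a chemokine, stood at 4.56, 0 and 49.8 against 166, 1774 and 453. Of 14 inflammatory genes 5 were lower, and of 27 interstitial matrix genes 4 were lower and 1 higher, where 2.35% of all genes were lower and 2.73% higher. The CONV mean of Myh11-zero cells rests on 4 cells. The number of genes was 512 without the CONV mouse, and 1 without CONV AsiDNA and 1 without FLASH, so the count held only with both of these mice.

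The gated cells were set beside the gated fibroblasts as a description, since cells in both gates (155) had been counted as muscle and the fibroblasts left were those short of muscle genes. With limma, 1123 of 3364 genes (33.4%) lay below an adjusted p of 0.05, 536 higher in the gated cells (15.9%) and 587 lower (17.4%). How much of this count the gates set was not tested. Actc1 stood at 2293, 5883 and 3853 in the gated cells against 0, 2.32 and 0 in fibroblasts (log2 8.45). Lmod1 stood at 1483, 1039.8 and 832 against 3.82, 9.29 and 8.10 (log2 6.02). Itih4, an inter-alpha-trypsin inhibitor chain, stood at 329, 344 and 353 against 0, 2.32 and 0, and Myom1, which crosslinks myosin, at 358, 344 and 327 against 0, 4.65 and 0. Of 15 contractile genes 15 were higher, of 11 pericyte genes 9 were higher and 1 lower, and of 9 receptor and cGMP genes 7 were higher and 1 lower.

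Hsd11b1, which activates glucocorticoids, stood at 21.1, 12.3 and 327 in the gated cells against 1901, 1373 and 1917 in fibroblasts, and Aldh1a1, which makes retinoic acid, at 71.6, 30.7 and 181 against 1159, 753 and 1445 (log2 -3.67). Both were highest in FLASH among the gated cells. In Myh11-positive cells alone, Hsd11b1 stood at 18.2, 7.28 and 4.98 and Aldh1a1 at 41.1, 18.2 and 9.97. Hsd11b1 was above 0 there in 2, 1 and 1 cells and did not pass the filter. No order of the libraries is read from these low levels. Of 27 interstitial matrix genes tested, 1 was higher and 20 were lower in the gated cells, with a median log2 fold of -1.12 against 0.07 over all genes, and of 14 basement membrane genes 2 were higher and 8 lower, where 15.9% of all genes were higher and 17.4% lower, so that 2 of 14 is near the share of all genes. Without the CONV AsiDNA mouse the count of genes that passed was 456.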

How the data were processed

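Lung cells were sequenced by droplet single-cell RNA-seq in 3 libraries, 1 mouse each. Per the labels and the study's methods, the authors aligned reads with Cell Ranger 6.0.0 to mm10 and processed cells with R and Seurat. The deposited values are natural log values, ln(1 + x), with x a whole number within 1e-06 for every value. Cell totals spanned only 1432 to 8462, so these were taken as depth-adjusted rather than raw UMI counts (adjusted counts), and no count model was fitted, although the tests had been planned with raw counts as a possibility. Depth in raw molecules is unknown, and a gene at 0 is listed at 0. Authors' tables with 12 per-sample columns in 4 other files were not used here.

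Cells were gated as described above, and no doublet caller was run, although cells with marker genes of other types were excluded. The members and all gene lists were chosen with earlier results of these data known. Sums were scaled to 1000000 (adjusted CPM), and log2 ratios used a prior of 10 CPM, with a mean of at least 50 CPM and a sum of at least 20. Genes were named by rule: the genes of the gate, up to 8 genes per list by mean level, 10 each way for CONV, 5 each way for the other libraries, and for the class comparisons those farthest in each direction, of which a part is printed. The Hhip split and the comparison of Myh11-positive with Myh11-zero cells were added after seeing the data. Class sums per mouse were compared with limma 3.58.1 in R 4.3.3 (mean-variance trend, mouse as block because both classes come from the same mouse, Benjamini-Hochberg adjustment, threshold 0.05, genes of the gates left out), tested on simulated data. Thinning drew 1000 adjusted counts per cell. Intervals are Clopper-Pearson at 95%. Promoters came from RefSeq, GRCm38.p6. Alternatives covered the gate, the filter, the prior, the fold and each mouse left out.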

Additional observations from a re-analysis of the deposited data

How the results depend on the processing

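Of the alternatives to each value, 31 were marked as moved and 70 were not. Those not marked were not all close, and include 753 and 1509 genes against 1123 in the comparison with fibroblasts. The counts of genes past 2-fold in gated cells (CONV over CONV AsiDNA, CONV over FLASH, CONV AsiDNA over FLASH) became 717, 909 and 416 with the sum of 20 as the only filter, 163, 198 and 51 at a mean of at least 100, and 958, 1075 and 576 at 1.5-fold. In Myh11-positive cells with Hhip at 0, the CONV AsiDNA over FLASH count became 220.

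With 2 or more genes of the rule, the gated share was 1.11% in CONV, 1.50% in CONV AsiDNA, 2.12% in FLASH, and 77.5%, 65.7% and 37.6% of them had Myh11 above 0 in CONV, CONV AsiDNA and FLASH. With 4 or more genes, gated cells were 0.941% of FLASH, and 98.1%, 95.8% and 84.7% had Myh11. Without cells with Pdgfra or Col13a1, gated cells were 0.910% of FLASH, and 100%, 95.8% and 77.2% had Myh11. Gating after thinning to 1000 adjusted counts gave 0.925% in FLASH, and 94.4%, 87.1% and 79.3% had Myh11. FLASH had the lowest Myh11 share under each of these, but its interval overlapped both others with 4 or more genes (73.0 to 92.8 for FLASH) and with gating after thinning (66.6 to 88.8).

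The comparison with fibroblasts gave 672 genes with 2 or more genes of the rule, and 456 to 1144 when 1 mouse was left out. Without the replicate block it gave 912. The comparison of Myh11-positive with Myh11-zero cells gave 51 genes with a prior of 1, 318 with the sum of 20 only, and 1 to 512 when 1 mouse was left out, and without the replicate block it gave 210. The causes were not tested. No paired analysis was possible between libraries because each condition has 1 mouse. The planned comparison of pericytes with Myh11-positive cells was not run, since 1 cell met the definition.

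Small cell numbers limit all values: 4 Myh11-zero cells in CONV, 3 Hhip-positive cells among Myh11-positive cells in CONV, and 1 cell that can carry much of a gene's sum. Raw depth is unknown, since the deposited values are taken as depth-adjusted.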
